A study of Mus musculus with 4 samples.

Results

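A set of 10 integrin subunit genes of blood cells was followed on 4 arrays: Itga4, Itgb7, Itgal, Itgam, Itgb2, Itga2, Itga5, Itga6, Itgav and Itgb1. They were taken by name, as every probe set whose single gene symbol in the platform's annotation table was one of the 10 genes, which gave 28 probe sets of 45101 and 10 genes of 18193. All 4 arrays measured mouse bone marrow cells that started as lineage-negative, Sca-1-positive, c-kit-positive (LSK) cells, the fraction that holds most blood stem cells and early progenitors. One array held LSK cells 3 days after transduction with a β-catenin retrovirus. A pair of arrays held LSK cells transduced with β-catenin after 50 and 300 days of culture, which the submitters call DKmix, and the last held LSK cells 3 days after transduction with a retrovirus for enhanced green fluorescent protein (eGFP), the control. All were grown with serum and with IL-3, IL-11, SCF and Flt3, the last as the labels name it. The study asked which targets of β-catenin, through which Wnt signals reach the genes, control the immortalization of these cells. Each group had 1 array, so no test was possible, no p-value is given and no difference below has a replicate check. No eGFP array past day 3 was analysed here, so time in culture and β-catenin cannot be told apart on the DKmix arrays.

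Integrins are cell surface receptors made of 1 α and 1 β subunit, and neither chain reaches the surface in quantity without a partner. They bind matrix proteins and counter-receptors on other cells, and hold blood progenitors in the marrow and lead leukocytes into tissues. The β7 subunit (Itgb7) pairs with α4 (Itga4) to bind the gut addressin MAdCAM-1, and in mice mast cell progenitors use this pair to enter the intestine. The β2 subunit (Itgb2) is restricted to leukocytes and pairs with αL (Itgal) to bind ICAMs and with αM (Itgam) to bind complement fragments and fibrinogen. The β1 subunit (Itgb1) pairs with α2, α4, α5, α6 and αV, which bind collagen, VCAM-1 and fibronectin, fibronectin, laminin, and RGD-containing proteins such as vitronectin, in that order.

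The values were linear signal intensities from MAS5, already scaled to a trimmed mean of 150 on each array. The median of all values, 48.3, served as a floor, and intensities no higher than it were treated as not distinguished from background. Where 1 of the arrays compared lay there the ratio is a bound ("at least"), and where both did the gene counts as not measured. Each gene took the value of its brightest probe set, by mean log2 intensity over the arrays, and was counted as higher or lower at 2-fold. The only error measure within these arrays is the disagreement between probe sets of the same gene, a log2 SD of 0.63 to 0.92 over the 5 comparisons, or a factor of 1.55 to 1.89. It leaves out any difference between cultures. The 3′ to 5′ signal ratio of the Gapdh control probe sets, a measure of RNA integrity, was 1.18 for β-catenin day 3, 4.96 for DKmix day 50, 1.06 for DKmix day 300 and 4.14 for eGFP day 3. That of the actin control was 1.32, 3.41, 1.20 and 1.83 in the same order. Comparing DKmix day 300 with β-catenin day 3 therefore sets arrays of low ratio by both controls side by side, whereas DKmix day 50 and eGFP day 3 were both high by Gapdh but differed by actin. Of 3 probe sets of Ctnnb1, the gene for β-catenin, 2 were higher on the β-catenin day 3 array than on eGFP day 3 (5.93-fold and 2.26-fold) and the brightest was not (4492 against 4732).

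The letters before the start sites are shown for Itgb7 and Itga4, which form 1 receptor and took different courses below, and for Itgam. Each run is the 250 bases before the annotated start, 5′ to 3′ on the gene's strand, from RefSeq on GRCm38.p6. Capitals mark matches, on either strand, to AGATAA, a site for GATA factors, to the E-box CACGTG and to another E-box of the letters CATGTG (both bound by MITF among others), to the ETS core GAGGAA as in PU.1 sites, and to the RUNX site TGTGGT. No matches overlapped in these runs.
Itgb7, chr15:102231936-102232185, minus strand: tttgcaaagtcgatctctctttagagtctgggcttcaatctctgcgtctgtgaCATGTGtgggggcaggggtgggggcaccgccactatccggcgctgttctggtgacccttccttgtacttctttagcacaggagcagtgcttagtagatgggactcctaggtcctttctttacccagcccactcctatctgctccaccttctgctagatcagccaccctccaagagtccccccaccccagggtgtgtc
Itga4, chr2:79255176-79255425, plus strand: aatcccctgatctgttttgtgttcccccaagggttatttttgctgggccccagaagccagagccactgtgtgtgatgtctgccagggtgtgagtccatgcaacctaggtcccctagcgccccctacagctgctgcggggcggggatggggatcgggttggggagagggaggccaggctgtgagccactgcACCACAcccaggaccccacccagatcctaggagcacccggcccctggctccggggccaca
Itgam, chr7:128062390-128062639, plus strand: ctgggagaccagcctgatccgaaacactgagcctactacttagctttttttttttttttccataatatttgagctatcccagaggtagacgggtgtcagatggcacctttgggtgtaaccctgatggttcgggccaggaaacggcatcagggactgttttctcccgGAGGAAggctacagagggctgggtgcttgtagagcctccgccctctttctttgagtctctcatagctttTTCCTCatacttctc
The Itgb7 window held CATGTG from base -197, which 12.3% of 32851 mouse promoter windows of this length hold. The Itga4 window held a reverse-strand match to TGTGGT from base -60, found in 14% of windows. Itgam held GAGGAA from base -84 and, on the reverse strand, from base -15. GAGGAA stood in 4 of the 7 integrin windows in the table (Itgam, Itgav, Itgb1 and Itga5) and in 23.3% of all windows, and AGATAA (9.99% of all windows) was in none of the 7, nor was the E-box CACGTG (6.02%). A match is a description of the letters and does not show that a factor binds.

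Across the 4 arrays, Itgb7 was the gene of the 10 that was higher on both DKmix arrays than on both day 3 arrays. Itgal and Itgam were lower on both, Itgal alone by 2-fold or more. Itgb7 read 938.3 on β-catenin day 3, 2179.9 on DKmix day 50, 1983.6 on DKmix day 300 and 234.0 on eGFP day 3. Itgal read 1131.4, 131.9, 9.5 and 573.8 in the same order. By the rule that the lower of the DKmix values exceed the higher of the day 3 values by 2-fold or more, 1 of the 10 members passed, against 2.78% of 15292 genes, and by the reverse rule 1 of 10, against 2.68%. On the scale set on hybridisation controls, given under the dependence on processing, Itgb7 no longer passed and Itgam passed the reverse rule as well.

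**Figure D1:**
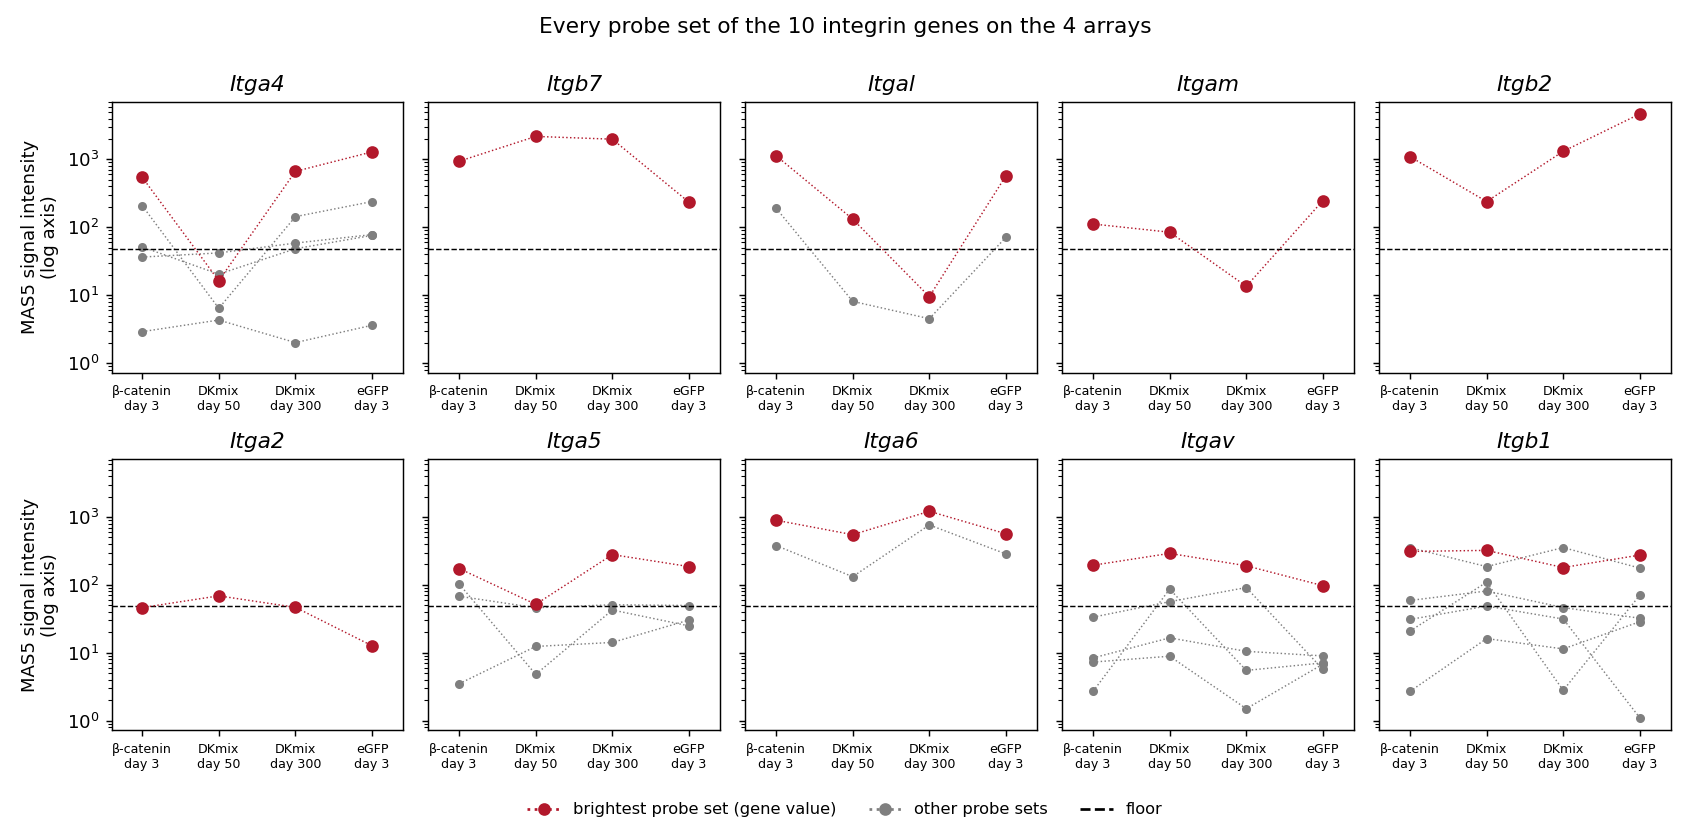
Signal intensity (log axis) of all 28 probe sets of the 10 integrin genes on the β-catenin day 3, DKmix day 50, DKmix day 300 and eGFP day 3 arrays, with the brightest probe set of each gene in red, the others in grey and the floor of 48.3 as a dashed line. Dotted lines only join points of 1 probe set. Both Itgal probe sets lie lower on the DKmix arrays, the 2 bright Itga4 probe sets drop below the floor at DKmix day 50 alone, and the Itgb1 probe sets do not run in parallel.

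The α4 and β7 chains took different courses. Itga4 read 545.3 on β-catenin day 3, 16.3 on DKmix day 50, 665.8 on DKmix day 300 and 1289.9 on eGFP day 3 by its brightest probe set, 1436037_at. It was thus below the floor at day 50 alone, at least 11.3-fold lower than on β-catenin day 3, at least 26.7-fold lower than on eGFP day 3, and at least 13.8-fold higher at day 300 than at day 50. At day 300 it was within 2-fold of β-catenin day 3 (log2 ratio 0.29). A second probe set, 1456498_at, gave 208.6, 6.4, 143.4 and 239.1 on the arrays in the same order, again below the floor at day 50 alone. The probe set 1450155_at was dim throughout (36.4, 41.9, 58.5 and 78.0), 1421194_at gave 51.3, 20.4, 48.3 and 75.9, and 1427615_at was never above the floor. The log2 mean of all 5 probe sets lay below the floor at day 50, so on that average the log2 ratio of day 50 to β-catenin day 3 is bounded only at -0.25 or below and that of day 300 to day 50 at 0.21 or above, and neither bound reaches 2-fold.

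Itgb7 has 1 probe set, so no second reading of it was available. It was 4.01-fold higher on β-catenin day 3 than on eGFP day 3, with log2 ratios between 1.94 and 2.40 under the alternatives. Over β-catenin day 3 it was 2.32-fold higher on DKmix day 50 and 2.11-fold higher on DKmix day 300, with log2 ratios of 0.28 and 0.035 on the hybridisation control scale. The DKmix arrays differed from each other by a log2 ratio of -0.14 (0.08 with lowess centring). Itgae, whose product αE is the other partner of β7 and binds E-cadherin, is outside the 10 genes and was looked at after these values were seen. It gave 111.5 on β-catenin day 3, 133.3 on DKmix day 50, 52.8 on DKmix day 300 and 161 on eGFP day 3. Its other probe set gave 94.8, 192.1, 15 and 134.1. By both it was lowest at day 300. Against β-catenin day 3, mast cell markers were higher in both DKmix cultures, as Itgb7 was on the deposited scale. At least 2-fold higher were 10 of 10 measured markers at day 50 and 9 of 9 at day 300, beside 16.1% and 14% of all genes. Between the DKmix cultures the markers did not follow Itgb7. At day 300, 6 of 10 were at least 2-fold lower than at day 50 and 0 higher (median log2 ratio -1.46), beside 15.9% and 15.1% of all genes. Of the 10 marker genes listed, 7 were above the floor on β-catenin day 3, 10 on DKmix day 50, 9 on DKmix day 300 and 8 on eGFP day 3. Over all genes the shares above the floor were 61.6%, 64.3%, 56.6% and 62.0% in that order. The markers' summed intensity was 3695, 175181, 77283 and 778.1 in that order. Their part in the Itgb7 values was not tested.

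The β2 family did not move as 1 group. Itgal, which encodes the αL chain of LFA-1, was 8.58-fold lower on DKmix day 50 and at least 23.4-fold lower on DKmix day 300 than on β-catenin day 3. It was 4.35-fold lower on DKmix day 50 than on eGFP day 3. Its second probe set, 1425367_at, gave 190.7 on β-catenin day 3, 8.1 on DKmix day 50, 4.5 on DKmix day 300 and 71.2 on eGFP day 3, below the floor on both DKmix arrays. Both probe sets therefore gave the same order of the day 3 and DKmix arrays. At day 3 Itgal was higher with β-catenin than eGFP, by 1.97-fold with the first probe set and 2.68-fold with the second. The log2 ratio of Itgal on DKmix day 50 over β-catenin day 3 lay between -4.04 and -2.99 under every alternative tried.

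Itgb2, which encodes the β chain shared by αL and αM, read 1097.0 on β-catenin day 3, 239.1 on DKmix day 50, 1314.8 on DKmix day 300 and 4678.8 on eGFP day 3. It was 4.27-fold lower on β-catenin day 3 and 19.6-fold lower on DKmix day 50 than on eGFP day 3. It was 5.50-fold higher on DKmix day 300 than on DKmix day 50, and day 300 was within 2-fold of β-catenin day 3 (log2 ratio 0.26, and -0.78 on the hybridisation control scale). Itgb2 was thus above the floor on all 4 arrays, including DKmix day 300, where both of its α chains among the 10 genes were below it.

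Itgam, the αM chain of Mac-1 on granulocytes and macrophages, read 111.7 on β-catenin day 3, 84.6 on DKmix day 50, 13.5 on DKmix day 300 and 247.3 on eGFP day 3. It was 2.21-fold lower on β-catenin day 3 and 2.92-fold lower on DKmix day 50 than on eGFP day 3, and at least 2.31-fold lower on DKmix day 300 than on β-catenin day 3. Its values lay close to the floor, and with the higher floor of 134.6 it was above the floor on eGFP day 3 alone. Itgb2 and Itgam were both highest on the eGFP array, where the neutrophil markers were also highest. Of 9 neutrophil markers, 7 were above the floor on β-catenin day 3, 2 on DKmix day 50, 1 on DKmix day 300 and all 9 on eGFP day 3. Of all genes, 61.6%, 64.3%, 56.6% and 62.0% were above it in that order. The summed intensity of the neutrophil markers was 8741 on β-catenin day 3, 331 on DKmix day 50, 195.2 on DKmix day 300 and 86734 on eGFP day 3. The 10 monocyte, macrophage and dendritic cell markers summed to 21177, 639.9, 5819 and 18652 in that order, with 10, 5, 5 and 8 of them above the floor. Most of the DKmix day 300 sum was Cd68, a lysosomal glycoprotein of macrophages, which read 5406.9 there against 191.6 on DKmix day 50. On β-catenin day 3 over eGFP day 3, 6 of the 10 were at least 2-fold higher and 2 lower, beside 10.2% and 9.42% of all genes. Cd74 (6.18-fold) was among the higher markers, and the lower were Csf1r (5.90-fold) and Mpeg1 (11.6-fold). The part of these cells in the β2 family values was not tested, and in these samples fewer cells of a type and less RNA per cell cannot be told apart.

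Of the chains that pair with β1 and bind matrix, none was past 2-fold on DKmix day 300 against β-catenin day 3 by its brightest probe set, though Itgav passed it on the hybridisation control scale (log2 ratio -1.07). By another probe set Itga6 was past 2-fold higher there (log2 ratio 1.01), and by another Itga5 was past 2-fold lower (-1.09 or below). Itga5, the α chain of the fibronectin receptor, read 174.3 on β-catenin day 3, 51.7 on DKmix day 50, 279.6 on DKmix day 300 and 186.2 on eGFP day 3 by its brightest probe set, 1423267_s_at. It was 3.37-fold lower on DKmix day 50 than on β-catenin day 3 and 5.41-fold higher on day 300 than on day 50. The day 50 value lay just above the floor of 48.3, and with the higher floor the first of these ratios was within 2-fold (log2 ratio -0.37). Another probe set, 1423268_at, gave 68.0, 46.1, 51.0 and 49.7, and put day 300 and day 50 within 2-fold of each other (log2 ratio 0.078). A further one, 1458996_at, gave 103.1, 4.8, 42.7 and 24.9, and 1457561_at was never above the floor. The lower Itga5 value at day 50 thus had the same sign in the 3 probe sets measured against β-catenin day 3, whereas the higher value at day 300 rested on 1 probe set.

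Itga6, the laminin-binding chain used as a marker of stem cells in several tissues, read 896.4 on β-catenin day 3, 549.3 on DKmix day 50, 1214.8 on DKmix day 300 and 565.8 on eGFP day 3. Its second probe set, 1422444_at, read 380.2, 132.1, 764.2 and 285.9. Both were above the floor on every array, both were highest at day 300 and both were lowest at day 50. Day 300 was higher than day 50 by 2.21-fold with the first and 5.79-fold with the second. Against β-catenin day 3, day 50 was 1.63-fold lower by the first probe set and 2.88-fold lower by the second, so that 2-fold was passed by 1 of them.

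Itgav, the αV chain, read 194.8 on β-catenin day 3, 291.2 on DKmix day 50, 191.3 on DKmix day 300 and 97.4 on eGFP day 3. It was 2-fold higher on β-catenin day 3 than on eGFP day 3, exactly at the threshold, and fell short of it with quantile normalization, lowess centring or the higher floor. It was 2.99-fold higher on DKmix day 50 than on eGFP day 3. Of its 5 probe sets, 1 was above the floor on all arrays, and 1432296_a_at gave 33.5, 56.6, 91.4 and 5.7. The latter was below the floor on both day 3 arrays, so it gave no second reading of the day 3 difference. Itga2, the collagen-binding α2 chain, has 1 probe set. It read 46.3, 69.0, 46.7 and 12.7 in the same order and was above the floor on DKmix day 50 alone, by less than 2-fold.

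Itgb1, the common β1 chain, was not past 2-fold by its brightest probe set in any of the 5 comparisons on the deposited scale (on the hybridisation control scale DKmix day 300 over β-catenin day 3 gave -1.83), but its probe sets disagreed. The brightest, 1426918_at, gave 311.0 on β-catenin day 3, 322.5 on DKmix day 50, 180.2 on DKmix day 300 and 275.2 on eGFP day 3, lowest at day 300. The next, 1452545_a_at, gave 353.4, 186.0, 354.7 and 176.8. It was high on β-catenin day 3 and DKmix day 300 and lower on DKmix day 50 and eGFP day 3, the arrays with the higher 3′ to 5′ control ratios. The part of RNA integrity in this was not tested. Of the 6 probe sets, 2 were above the floor on all arrays, 3 on some and 1 on none. For DKmix day 300 over DKmix day 50 their log2 ratios went from -1.18 to 0.93 over the 5 measured, so the sign of an Itgb1 difference depended on the probe set.

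**Figure D2:**
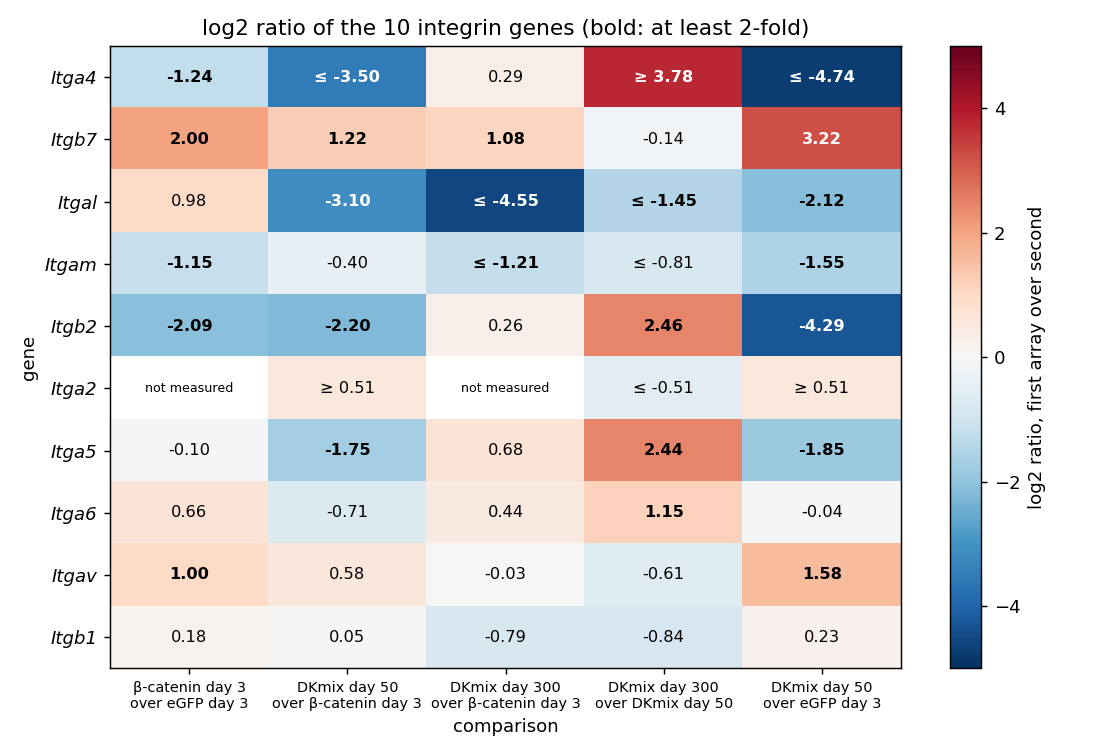
The log2 ratio of each of the 10 integrin genes (rows) in 5 comparisons of single arrays (columns), first array over second, with values in the cells and bold for at least 2-fold. Signs ≥ and ≤ mark bounds where 1 array was at or below the floor, and Itga2 was not measured in 2 comparisons. Itgb7 is past 2-fold higher in 4 of the 5 columns, though not over β-catenin day 3 on the hybridisation control scale, and Itgal past 2-fold lower in 4.

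Counted by comparison, β-catenin day 3 over eGFP day 3 had 2 of 9 measured members at least 2-fold higher (Itgb7 and Itgav) and 3 lower (Itga4, Itgam and Itgb2). Over all genes 10.2% were higher and 9.42% lower. The Itga4 call was lost on the hybridisation control scale (log2 ratio -0.84) and with averaged probe sets (-0.68), and of its 4 measured probe sets 1 was 2-fold lower. The Itgam call was lost on that scale (-0.75) and with the higher floor (-0.88). The median log2 ratio was 0.18 for the members and -0.015 for all genes. DKmix day 50 over β-catenin day 3 had 1 of 10 higher (Itgb7) and 4 lower (Itga4, Itgal, Itgb2 and Itga5), with 16.1% of all genes higher and 15.7% lower. The medians were -0.55 for the members and 0.067 for all genes. DKmix day 300 over β-catenin day 3 had 1 of 9 higher (Itgb7) and 2 lower (Itgal and Itgam), beside 14% and 14.4% of all genes, and medians of 0.26 and -0.076. These comparisons share the β-catenin day 3 array.

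Between the cultures, DKmix day 300 over DKmix day 50 had 4 of 10 members higher (Itga4, Itgb2, Itga6 and Itga5) and 1 lower (Itgal), beside 15.1% of all genes higher and 15.9% lower. The member median was -0.33 and that of all genes -0.14. When probe sets were averaged, Itgb2 and Itga6 were the members still higher. DKmix day 300 had the lowest 3′ to 5′ ratios by both controls and DKmix day 50 the highest. Their comparison also had the largest probe set SD of the 5, at 0.92. For genes past 2-fold in it, a second measured probe set had the same direction in 63.5%, the lowest share of the 5. The part of RNA integrity in these counts was not tested. DKmix day 50 over eGFP day 3 had 2 of 10 higher (Itgb7 and Itgav) and 5 lower (Itga4, Itgal, Itgam, Itgb2 and Itga5), beside 15.6% and 15% of all genes, with medians of -0.80 and 0.035. No test of the members against other genes was made, and with 9 or 10 members a count moves by 1 gene at a time.

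**Figure D3:**
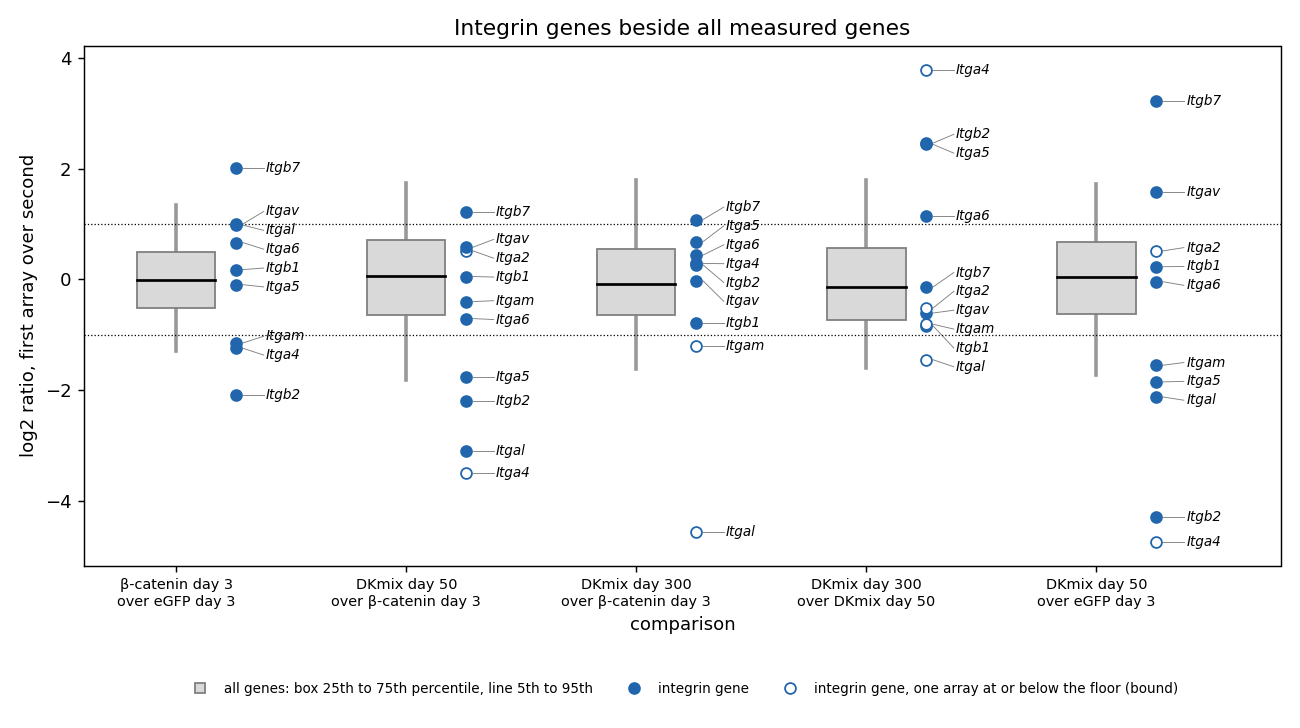
The log2 ratios of the measured integrin genes (points, open where the value is a bound) beside those of all measured genes (box from the 25th to the 75th percentile with the median, line from the 5th to the 95th) in the 5 comparisons, first array over second, with dotted lines at 2-fold. Itga4 lies at -3.50 or below and -4.74 or below in the comparisons of DKmix day 50 with the day 3 arrays, and Itgal at -4.55 or below on DKmix day 300 over β-catenin day 3.

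The ratios of DKmix day 300 to β-catenin day 3 and of DKmix day 50 to eGFP day 3 share no array, and each sets arrays with like Gapdh ratios side by side, though by actin the arrays of the second differed. Of 9 members measured in both, Itgb7 was at least 2-fold higher in both and Itgal and Itgam at least 2-fold lower in both. Over 11184 genes measured in both, 5.47% were higher in both and 5.33% lower in both. Itga4, Itgb2 and Itga5 were past 2-fold lower on DKmix day 50 over eGFP day 3 and within 2-fold on DKmix day 300 over β-catenin day 3. For Itga4 the log2 ratios were -4.74 or below and 0.29, for Itgb2 -4.29 and 0.26, and for Itga5 -1.85 and 0.68.

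**Figure D4:**
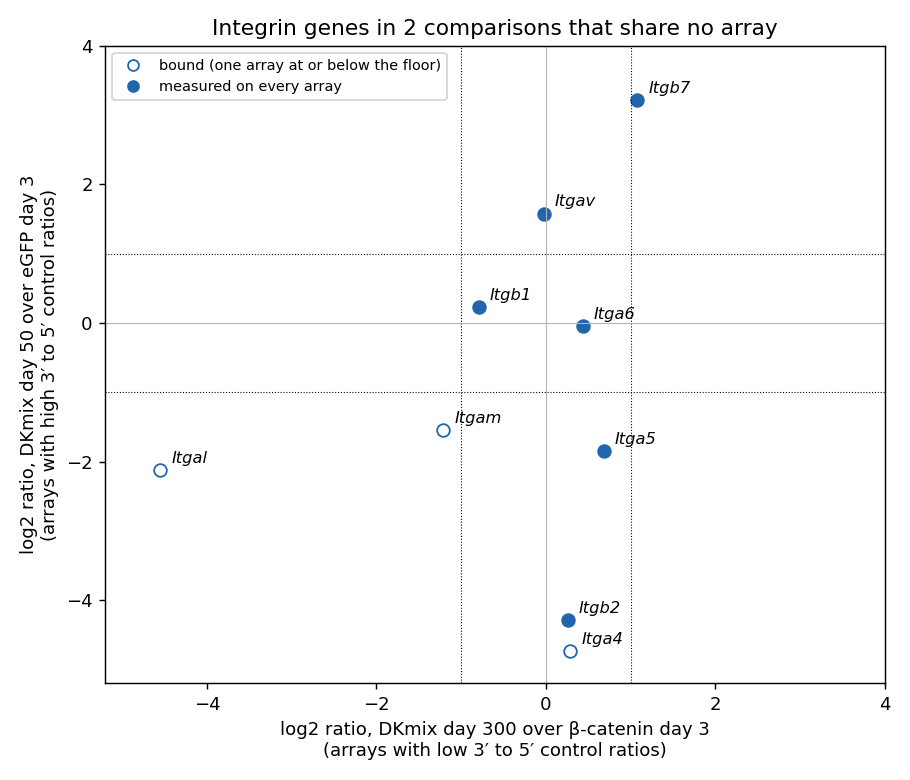
The log2 ratio on DKmix day 300 over β-catenin day 3 (horizontal) against that on DKmix day 50 over eGFP day 3 (vertical) for the 9 integrin genes measured in both, with open points for bounds and dotted lines at 2-fold. Itgb7 lies past 2-fold higher on both axes (0.035 on the horizontal axis on the hybridisation control scale), Itgal and Itgam lie past 2-fold lower on both, and Itga4 and Itgb2 lie low on the vertical axis alone.

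The other integrin subunits gave 14 genes of a list of 16, of which 7 to 11 were measured in a comparison. Itga2b, the αIIb chain of the platelet fibrinogen receptor, read 1226.7 on β-catenin day 3, 6230 on DKmix day 50, 5868 on DKmix day 300 and 595.1 on eGFP day 3. Against β-catenin day 3 it was 5.08-fold higher at day 50 and 4.78-fold higher at day 300. Itgb3, which encodes its only β partner, read 496.8, 28.8, 26.9 and 503.8, and so was at least 10.3-fold lower on each DKmix array than on β-catenin day 3. A dimmer Itgb3 probe set gave 57.4, 63.1, 6.2 and 10.8 and did not show this at day 50. Itgb5, another partner of αV, was lower on both DKmix arrays than on β-catenin day 3 in each of its 4 probe sets, for example 633.5, 7.2, 11.2 and 68.6. Itgb4, which pairs with α6, read 4.5, 73, 552.5 and 48.8, highest at day 300. Itgax, the αX partner of β2 on dendritic cells and macrophages, read 139.5, 6.5, 41.8 and 743.2. Like Itgam it was highest on eGFP day 3.

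In the 5 comparisons these other subunits had 2 higher and 2 lower of 9 between the day 3 arrays, 2 and 3 of 7 for DKmix day 50 against β-catenin, 4 and 4 of 11 for DKmix day 300 against β-catenin, 3 and 2 of 9 for DKmix day 300 against day 50, and 1 and 3 of 9 for DKmix day 50 against eGFP. Their medians were -0.49, 0.26, 0.087, 0.056 and -0.27. Over all genes, 10.2% were higher and 9.42% lower, then 16.1% and 15.7%, 14% and 14.4%, 15.1% and 15.9%, and 15.6% and 15%, in that order. The medians of all genes were -0.015, 0.067, -0.076, -0.14 and 0.035. These shares and medians are the background for the lists below as well. The lists were not recounted on the hybridisation control scale, which lowers log2 ratios over β-catenin day 3 by 0.94 at DKmix day 50 and 1.04 at day 300.

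The next list held genes that switch integrins on, such as talin, kindlin-3 and the RAP1 module. On DKmix day 50 over β-catenin day 3, 7 of 15 measured were higher and 3 lower, beside 16.1% and 15.7% of all genes. The medians were 0.95 and 0.067. Rap1a, the small GTPase that drives inside-out activation, was 2.48-fold higher at day 50 and 3.26-fold higher at day 300 than on β-catenin day 3. Fyb, an adaptor that works with SKAP proteins in RAP1 signalling to integrins, was 3.36-fold and 2.26-fold higher. Skap2, the gene of a SKAP protein, was within 2-fold at day 50 and 2.86-fold lower at day 300 than on β-catenin day 3. It was 3.10-fold lower on DKmix day 50 than on eGFP day 3. Fermt3, the kindlin of blood cells, was 2.37-fold higher at day 50 by its brightest probe set, which read 3450.5 on β-catenin day 3, 8188.7 on DKmix day 50, 2502 on DKmix day 300 and 6292.1 on eGFP day 3. Another Fermt3 probe set gave 2168.1, 1214.1, 2646 and 2033.1, the reverse order at day 50. On the hybridisation control scale the rises of Rap1a, Fyb and Fermt3 over β-catenin day 3 fell short of 2-fold by their brightest probe sets. On DKmix day 300 over β-catenin day 3, 3 of 14 activation genes were higher and 2 lower (median 0.11). On DKmix day 300 over DKmix day 50, 2 of 15 were higher and 3 lower (median -0.48).

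At day 3, 0 of 14 activation genes were higher with β-catenin than with eGFP and 2 were lower (median -0.52), among them Rassf5, a RAP1 effector that binds αL, at 2.42-fold. The list of adhesion complex and outside-in signalling genes had 1 of 20 higher and 8 lower (median -0.83). Over all genes 10.2% were higher and 9.42% lower at day 3. The lower genes of the list included Fgr, a SRC-family kinase of myeloid cells (12.2-fold), Actn1, the actin crosslinker α-actinin (5.13-fold), and Vcl, vinculin (4.03-fold). The Actn1 call rested on its brightest probe set. Its other probe sets read 157.2 and 137.9 on β-catenin day 3 against 164.4 and 260.1 on eGFP day 3, within 2-fold. Fyn, another SRC-family kinase, was 4.91-fold higher. On DKmix day 50 over eGFP day 3 the list had 1 of 20 higher and 7 lower (median -0.73). Actn1 was 58.2-fold lower there by its brightest probe set. The activation genes had 2 of 15 higher and 4 lower (median -0.36). Against β-catenin day 3, the adhesion complex list had 2 of 19 higher and 5 lower at day 50 (median 0.012) and 4 of 20 higher and 4 lower at day 300 (median 0.053). Actn1 was 11.3-fold lower at day 50 and 10.9-fold lower at day 300 by its brightest probe set, and Vcl was 2.80-fold and 3.92-fold higher. The other Actn1 probe sets read 18.4 and 13.2 on DKmix day 50, below the floor, and 50.1 and 35 on DKmix day 300. They were thus past 2-fold lower on both DKmix arrays than on both day 3 arrays, by smaller ratios or bounds. On DKmix day 300 over DKmix day 50, 6 of 19 adhesion complex genes were higher and 3 lower (median 0.14). Ilk, the integrin-linked pseudokinase, was 2.82-fold higher.

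Among integrin ligands, Mfge8, a bridge between αV integrins and phosphatidylserine on dying cells, was 16.9-fold higher on DKmix day 50 and 31.0-fold higher on DKmix day 300 than on β-catenin day 3. Thbs1, thrombospondin-1, was at least 46.6-fold lower on each. Icam2, a ligand of αLβ2, read 881.4 on β-catenin day 3, 20.3 on DKmix day 50, 256.9 on DKmix day 300 and 401.7 on eGFP day 3. It was at least 18.2-fold lower on day 50 and 3.43-fold lower on day 300 than on β-catenin day 3. Madcam1, the ligand of α4β7, was above the floor on β-catenin day 3 alone (57.4). In the 5 comparisons, in the order used for the other subunits, the ligand list had 3 higher and 1 lower of 18, 1 and 3 of 17, 4 and 4 of 14, 5 and 0 of 12, and 1 and 3 of 18, with medians of 0.20, -0.34, -0.30, 0.47 and -0.31.

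The tetraspanins and other membrane partners of integrins held 9 measured genes. Cd81, a partner of α4β1, read 665.8 on β-catenin day 3, 55.2 on DKmix day 50, 81.4 on DKmix day 300 and 1152.2 on eGFP day 3, so it was low on both DKmix arrays. Cd151, which associates with laminin-binding integrins, was 6.10-fold higher on DKmix day 50 than on β-catenin day 3 and 10.8-fold lower on DKmix day 300 than on DKmix day 50. Cd53, a leukocyte tetraspanin, was 16.2-fold higher and Cd82 15.0-fold higher on β-catenin day 3 than on eGFP day 3. The list had 2 higher and 1 lower, 2 and 2, 1 and 2, 2 and 3, and 2 and 1 of 9 in the same order of comparisons, with medians of -0.13, 0.17, -0.79, 0.054 and 0.61.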

How the data were processed

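RNA was measured on 1 Affymetrix array for each of 4 samples. The authors deposited 1 linear signal intensity per probe set. The submitters' processing notes name MAS5. Its version, detection calls and genome build are not given in the sources used here. Trimmed means (2% at either end) were equal on the 4 arrays, so no further scaling was applied. Symbols came from the platform annotation: 34958 probe sets had 1 symbol, 932 had several and 9211 were unnamed, and all 28 integrin probe sets matched a RefSeq gene by Entrez identifier. The 64 control probe sets were left out of the genes. The floor, the brightest probe set and the 2-fold threshold are described with the results. Promoter motifs were matched as exact letters. Python 3.11.15, pandas 2.3.3, numpy 2.4.6 and statsmodels 0.14.6 were used, and the ratio and call steps were tested on simulated data.

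The members, lists and thresholds were chosen with earlier results of these data known. All 10 members are named whatever their values. Up to 4 genes per list and comparison were named, by the largest ratio past 2-fold with the brighter value at least 4 times the floor. Others named (Itgae, Madcam1, Cd68, Cd74, Csf1r, Mpeg1, the further probe sets) and the count over the comparisons that share no array were chosen after their values were seen. Alternatives were the scale of the 9 hybridisation control probe sets, quantile normalization, lowess centring (fraction 0.3), floors at percentile 25 (11.0) and percentile 75 (134.6), the mean of all probe sets, and leaving out probe sets whose identifiers end in _s_at or _x_at. Precision is limited by the number of arrays.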

Additional observations from a re-analysis of the deposited data

How the results depend on the processing

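No paired analysis was possible because each group had 1 array, and no array could be left out of a group for the same reason. Relative to β-catenin day 3, the hybridisation controls had a log2 intensity 0.94 higher at DKmix day 50 and 1.04 higher at day 300, and β-catenin day 3 had -0.40 relative to eGFP day 3. The scale set on them moved the median log2 ratio of all genes to 0.34 for β-catenin day 3 over eGFP day 3, -0.73 and -0.90 for DKmix day 50 and day 300 over β-catenin day 3, -0.17 for DKmix day 300 over day 50, and -0.41 for DKmix day 50 over eGFP day 3. On that scale β-catenin day 3 over eGFP day 3 had 4 members higher and 1 lower, in place of 2 and 3, with 21.4% of all genes higher and 6.88% lower. DKmix day 50 over β-catenin day 3 had 0 higher in place of 1 and 6 lower in place of 4, with 4.92% of all genes higher and 39.3% lower. DKmix day 300 over β-catenin day 3 had 0 higher in place of 1 and 4 lower in place of 2, with 4.17% of all genes higher and 45.1% lower. DKmix day 50 over eGFP day 3 had 7.56% of all genes higher and 27.4% lower. Both DKmix arrays were at least 2-fold above both day 3 arrays for 0 members and below for 2. Ratios within 2-fold changed sign on that scale for 3 members at DKmix day 50 over β-catenin day 3 (Itgav, Itga2 and Itgb1), 4 at day 300 (Itga4, Itgb2, Itga6 and Itga5) and 1 each for Itga5 at day 3 and Itgb1 at DKmix day 50 over eGFP day 3.

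For β-catenin day 3 over eGFP day 3, 1 member was higher with quantile normalization (9.91% of all genes) and 1 with the higher floor (7.89%). For DKmix day 300 over β-catenin day 3, 1 was lower with the higher floor (12.7% of all genes). For DKmix day 300 over day 50, 2 were higher with averaged probe sets (14.2% of all genes). The lower members there were 2 with the lower floor (27.1% of all genes), 0 with the higher floor (12.7%) and 0 with averaged probe sets (12.4%). For DKmix day 50 over eGFP day 3, 1 was higher with averaged probe sets (14.3% of all genes), and 3 were lower under each of the higher floor and averaged probe sets (14.6% of all genes in both). Without the _s_at and _x_at probe sets the Itga5 calls at day 50 were lost, with log2 ratios of -0.49 over β-catenin day 3 and -0.041 over eGFP day 3. With the higher floor both were lost as well (-0.37 and -0.47). Of 320 ratios of single members still measured under an alternative, 289 kept their side of the 2-fold threshold, 20 fell short of it, 11 passed it, and none past 2-fold changed sign. Ratios no longer measured are outside this count, and some were 2-fold calls. With averaged probe sets these were Itgal at day 300 over day 50, Itga5 at day 50 over β-catenin day 3, and both Itgav calls over eGFP. With the higher floor they were Itgal at day 300 over day 50 and Itgam at day 300 over β-catenin day 3. The causes of these changes were not tested. The higher floor leaves fewer genes measured and sets lower values to 134.6 in a ratio.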
